A study of Zea mays with 18 samples.

Results

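The stable genes are 65 of the 36321 maize genes measured, chosen by how little their levels moved between the 6 groups of leaf libraries. Levels were FPKM, the sequenced fragments of a gene relative to its transcript length and to all mapped fragments of the library. L was the mean of log2(FPKM + 1) over the 3 libraries of a group, and the largest L minus the smallest L over the 6 groups is called the range here. A gene was kept if its FPKM was at least 10 in all 18 libraries and its range was at most 0.5, which is a 1.41-fold difference. The 100 genes with the highest mean FPKM in W22 at 0 h were to be left out, but the smallest range among them was 0.58, so this step removed no gene. In total, 3866 genes met the FPKM minimum in all libraries (the well-expressed genes), and the 65 stable genes were 1.68% of them and 0.179% of the table. The rule used all 6 group means, so the small differences between groups follow from the choice and are given as descriptions with no test. The spread between the libraries of a group, and the same rule read in libraries that did not take part in the choice, were less bound to the rule.

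RNA-seq measured transcripts in the blade of the first fully expanded leaf of 2 genotypes. W22 is a maize inbred line, and *nf-ya1* is a line in the W22 background that carries a *Mu* transposon insertion in *ZmNF-YA1* (Zm00001eb005690), which encodes a subunit of the CCAAT-binding NF-Y transcription factor. Both genotypes were sampled under normal conditions (0 h), after 1 h of mild heat stress (1 h, or in the heat) and 2 h into recovery from mild heat stress (R2h, or in recovery), with 3 biological replicates in each group. The mutant was represented by 1 insertion allele, so allele and line cannot be told apart, and the time that the R2h plants had spent in the heat was not stated in the sample titles. The groups follow these titles, while the treatment text attached to the same samples names a longer heat treatment and a longer recovery. In the methods of the study, the longer times belong to an assay of survival and physiology under severe heat. For the transcriptomes, the study describes moderate heat and the shorter times, as the titles do.

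Genes whose transcripts keep a steady level across treatments serve as internal references in qRT-PCR and as anchors when libraries are scaled to each other. Many of them work in basic processes such as protein turnover, vesicle traffic or RNA processing, but no gene is steady in every tissue and treatment. FPKM is a share of a library: when a few heat-induced transcripts take up a large part of the fragments, the FPKM of every other gene falls, even if its amount per cell is the same. In bulk leaf tissue, fewer cells of a type and less RNA per cell cannot be told apart.

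Summed FPKM ranged from 804977 to 928910 per library, and since read counts of single genes were not analysed here, the precision of a value rests on the 3 libraries of a group. The 20 highest genes took 25.9% to 27.1% of the FPKM in W22 at 1 h, 21.7% to 22.5% in *nf-ya1* at 1 h and 15.7% to 20.7% in the other libraries. Between 5986 and 6796 genes reached an FPKM of 10 in a library at 1 h, against 8311 to 10740 at 0 h and R2h. The median FPKM of the 22572 genes tested (FPKM of at least 1 in at least 3 libraries) lay between 3.11 and 3.88 at 1 h and between 5.69 and 9.16 in the other libraries. Transcripts for the light-harvesting chlorophyll A-B binding proteins summed to between 12859 and 90599 FPKM per library and those of 3 carbonic anhydrases, which supply bicarbonate for carbon fixation, to between 735 and 2106. In the same libraries, 24 genes with a Casparian strip membrane protein domain, a family best known from the root endodermis, summed to between 222 and 432 FPKM. *ZmNF-YA1* itself had FPKM of 23.1, 22.8 and 26.6 in W22 and of 13.0, 12.6 and 21.2 in *nf-ya1* at 0 h. The corresponding values were 49.6, 43.7 and 39.1 against 43.2, 36.1 and 27.0 at 1 h, and 11.4, 15.1 and 12.4 against 8.97, 12.9 and 9.38 at R2h. The mutant is described in the methods of the study as lacking transcripts of the gene. By qRT-PCR the study found lower levels in it than in W22 before and after heat, with no early rise. FPKM of the whole gene cannot show whether intact transcripts were made, and *nf-ya1* stands throughout for the libraries that carry this label. They held reads of the gene at all times, with no overlap with W22 at 0 h and with overlap at 1 h and R2h, and where these reads lay relative to the insertion was not analysed here.

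A range of 0.5 over all 6 groups was rare among well-expressed genes. Their median range was 1.46, and it reached from 0.16 to 9.23. Only 4 genes were within 0.25, while 749 (19.4%) were within 1 and 2899 (74.99%) within 2. Fewer groups gave longer lists: 715 genes (18.5%) were within 0.5 over the 3 times in W22 and 360 (9.31%) over the 3 times in *nf-ya1*. When only 0 h and R2h of both genotypes were compared, 1161 genes (30.03%) were within 0.5. Between 0 h and 1 h alone, 1288 genes (33.3%) were within 0.5 in W22 and 968 (25.04%) in *nf-ya1*, against 2891 (74.8%) and 2238 (57.9%) between 0 h and R2h. The 1 h libraries therefore set the length of the list more than those of recovery did.

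**Figure D1:**
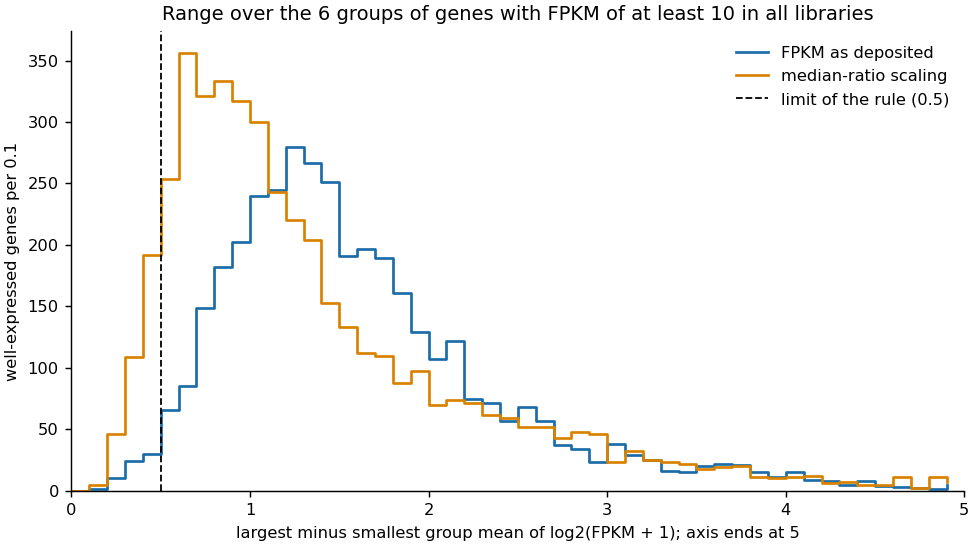
Number of well-expressed genes (y axis, per 0.1 of range) against the largest minus the smallest group mean of log2(FPKM + 1) (x axis), for FPKM as deposited (3866 genes) and after median-ratio scaling of the libraries (4511 genes). The dashed line marks 0.5, with 65 genes at or under it for the deposited values and 350 for the scaled values.

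Over the 18 libraries, the mean FPKM of the stable genes had a median of 25.8 and ranged from 13.3 to 249. The other 3801 well-expressed genes had a median of 51.7 and reached 27295. The FPKM minimum bears on this contrast, since a gene that moves several-fold needs a higher mean to stay above it in every library. The FPKM of the lowest library had nearly the same median in both sets. The contrast of means is therefore not read as a trait of the stable genes. Among the 65 genes, 44 had a mean FPKM of at least 20, 16 of at least 50 and 6 of at least 100. Taken one by one, the highest library was 1.62-fold above the lowest in the median stable gene (1.36-fold to 2.54-fold), against 3.84-fold in the other well-expressed genes. In 14 stable genes the highest of the 18 libraries was less than 1.5-fold above the lowest, and in 57 it was less than 2-fold. The coefficient of variation over all libraries had a median of 13.3% (8.36% to 23.3%) against 37.6% in the other genes. All 65 carried IDs of the B73 gene set, and none had the ID of a transcript outside it.

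The gene with the smallest range was Zm00001eb122160, at 0.16. Its FPKM was 18.6, 15.7 and 17.4 in W22 at 0 h, 18.2, 18 and 16.7 in the heat and 17.99, 21.0 and 18.1 in recovery. The libraries of *nf-ya1* had 16.6, 15.3 and 20.2 at 0 h, 15.8, 18.4 and 19.8 in the heat and 20.4, 17.7 and 20.1 in recovery. Every pair of groups overlapped in this gene, and the lowest and the highest of its 18 values (15.3 and 21.0) both lay outside the heat-stressed libraries. Zm00001eb296050 came next with a range of 0.20. Its FPKM was 17.9, 14.5 and 15.6 in W22 at 0 h, 14.5, 16.9 and 17.7 in the heat and 19.3, 16.8 and 18.4 in recovery. In *nf-ya1*, values of 18.4, 17.4 and 19.6 at 0 h were followed by 19.5, 17.8 and 15.0 at 1 h and by 17.5, 17.6 and 16.8 at R2h. Here too no pair of groups was free of overlap, and the highest library was 1.36-fold above the lowest, the smallest such ratio among the stable genes.

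Zm00001eb183320 had a range of 0.22 and the lowest coefficient of variation of the list (8.36%). Its 3 libraries of *nf-ya1* at 1 h were nearly equal, at 28.3, 28.1 and 28.0 FPKM, while those of W22 at 1 h were 27.4, 30.6 and 35.1. At 0 h it had 28.1, 26.1 and 28.2 FPKM in W22 and 26.8, 24.8 and 27.4 in *nf-ya1*. Values at R2h were 29.3, 30.1 and 31.0 in W22 and 25.6, 26.6 and 28.8 in *nf-ya1*, so the genotypes did not overlap there, by a small margin. A single high value shaped Zm00001eb419620, with a range of 0.23. In W22 at 1 h it had 14.2, 14.7 and 20.5 FPKM, and the remaining 17 libraries lay between 12.7 and 16.9. Its groups still overlapped in every pair.

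In other genes of the 10 with the smallest range, 1 or 2 libraries stood far from the rest of their group. Zm00001eb030300 (range 0.26) had 56.6, 27.4 and 45.4 FPKM in *nf-ya1* at R2h, a group mean of 43.1 ± 14.8 (SD, n = 3), while the 15 libraries of the other groups lay between 40.1 and 52.8. For Zm00001eb397510 (range 0.28), *nf-ya1* at 1 h had 164, 102 and 64.3 FPKM, or 110 ± 50.1 (SD, n = 3). The mean of that group is close to the 108 ± 12.5 (SD, n = 3) of W22 at 0 h, although its libraries spanned 2.54-fold, the widest ratio among the stable genes. A small range of group means therefore did not exclude a wide spread between replicates, since the rule set no limit on the spread.

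The other genes of the 10 kept within 1.5-fold over all libraries. Zm00001eb336590 (range 0.27) lay between 17.2 and 25.1 FPKM and was lowest on average in W22 at 0 h (19.2 ± 0.594, SD, n = 3) and highest in W22 at 1 h (23.4 ± 1.60, SD, n = 3). Zm00001eb289520 (range 0.28) ranged from 12.4 to 18.5 FPKM, with 13.8 ± 1.99 in *nf-ya1* at 0 h and 16.8 ± 1.27 in *nf-ya1* at 1 h (SD, n = 3 each). For Zm00001eb227710 (range 0.29), group means were 15.7 ± 0.799 in W22 at 0 h and 19.4 ± 1.93 in W22 at R2h (SD, n = 3 each), and these groups did not overlap. Zm00001eb054690 (range 0.30) was highest in *nf-ya1* at 0 h, at 14.8, 19.1 and 18.9 FPKM, and lowest in *nf-ya1* at 1 h, at 14.7, 14.3 and 13.4 FPKM. Its 3 libraries of *nf-ya1* at R2h, at 17.1, 16.9 and 16.7 FPKM, had an SD of 0.170 FPKM.

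**Figure D2:**
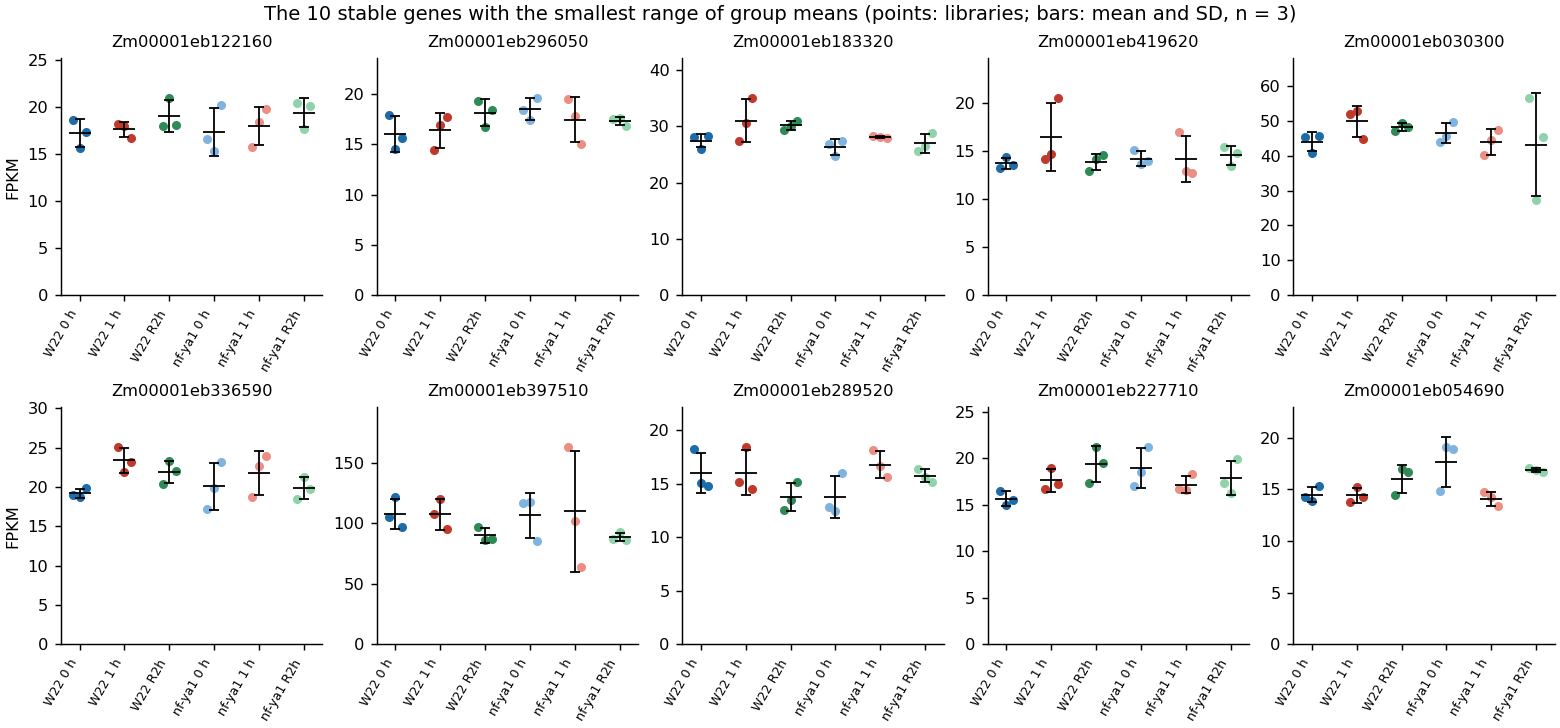
FPKM (y axis, from 0) of the 10 stable genes with the smallest range, in each of the 18 libraries (points) by group (x axis), with the group mean and SD (bars, n = 3). The points of most groups overlap, and the wide bars in Zm00001eb030300 at R2h and Zm00001eb397510 at 1 h of *nf-ya1* come from libraries at 27.4 and 56.6 FPKM and at 64.3 and 164 FPKM.

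The stable gene of highest mean FPKM was Zm00001eb143300, at 249 over all libraries. It had 220, 239 and 225 FPKM in W22 at 0 h, 307, 273 and 255 in the heat and 255, 249 and 244 in recovery. In *nf-ya1* it had 260, 221 and 190 FPKM at 0 h, 253, 279 and 291 in the heat and 240, 245 and 235 in recovery. Its mean was highest in W22 at 1 h (278 ± 26.6, SD, n = 3) and lowest in *nf-ya1* at 0 h (224 ± 34.9, SD, n = 3), and its range was 0.32. In W22 all 1 h libraries lay above all 0 h libraries, while in *nf-ya1* those of 0 h and 1 h overlapped.

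Zm00001eb282590, at a mean FPKM of 184 (range 0.45), had 184, 202 and 175 FPKM in W22 at 0 h, 205, 229 and 214 in the heat and 159, 148 and 168 in recovery. The 3 times did not overlap in W22. In *nf-ya1* the values were 204, 176 and 193 at 0 h, 178, 181 and 179 in the heat and 164, 179 and 173 in recovery, and neighbouring times overlapped. Zm00001eb209480, at a mean FPKM of 165 (range 0.37), had 167, 172 and 169 FPKM in W22 at 0 h, 193, 189 and 171 in the heat and 147, 148 and 144 in recovery. Its libraries of *nf-ya1* had 161, 144 and 125 FPKM at 0 h, 200, 188 and 163 in the heat and 155, 169 and 165 in recovery. On FPKM as deposited, these 3 genes were at their highest mean in W22 at 1 h, and each was 1.55-fold to 1.62-fold higher in its highest than in its lowest library.

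At the limit of the rule the members and the genes left out had the same size of change. The last 3 genes inside were Zm00001eb281780 (range 0.4959), Zm00001eb319510 (0.4983) and Zm00001eb384870 (0.4995). Just outside were Zm00001eb085350 (0.5001), Zm00001eb326230 (0.5005) and Zm00001eb122990 (0.5007). Zm00001eb384870 had 23.2, 26.0 and 23.4 FPKM in W22 at 0 h and 23.9, 26.0 and 20.1 in *nf-ya1* at 0 h, but 39.9, 29.9 and 30.8 in *nf-ya1* at R2h. Of the 15 pairs of groups, 11 did not overlap in this gene, the most in the list, as in Zm00001eb278450 and Zm00001eb355810. Zm00001eb122990, left out, had close values in *nf-ya1* at R2h (20.54, 20.52 and 20.53 FPKM) and 21.0, 25.2 and 28.3 FPKM in *nf-ya1* at 0 h, its highest group.

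The spread between the libraries of a group was not part of the rule beyond the minimum FPKM. The pooled within-group SD of log2(FPKM + 1) had a median of 0.138 over the stable genes (0.064 to 0.314) and of 0.199 over the other well-expressed genes. The stable genes also had the lower median in each of the 6 groups. Their median SD was 0.096 in W22 at 0 h, 0.108 at 1 h and 0.094 at R2h, against 0.111, 0.138 and 0.108 in the other genes. In *nf-ya1* it was 0.143 at 0 h, 0.111 at 1 h and 0.084 at R2h, against 0.232, 0.201 and 0.132. The difference from the other genes was wider in *nf-ya1*, and the group of largest spread was *nf-ya1* at 0 h in both sets. A gene with noisy libraries has group means that differ more, so a small range and a small SD are linked by the choice, and the SDs are given without a test.

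The smallest pooled SDs were those of Zm00001eb360160 (0.064) and Zm00001eb355810 (0.069). Zm00001eb360160 had 43.4, 42.0 and 45.9 FPKM in W22 at 0 h, 39.1, 44.9 and 39.6 in the heat and 32.6, 32.8 and 33.1 in recovery. In *nf-ya1* it had 42.4, 39.0 and 42.2 FPKM at 0 h, 39.8, 36.5 and 37.3 in the heat and 34.6, 34.4 and 34.2 in recovery. On deposited FPKM the R2h libraries of both genotypes lay below all other libraries, so libraries this close did not overlap at a difference under 1.41-fold. Zm00001eb355810 had 26.3, 24.6 and 22.9 FPKM in W22 at 0 h and 27.0, 23.7 and 26.2 at 1 h, while *nf-ya1* had 20.8, 20.9 and 21.5 FPKM at 1 h and 19.3, 17.6 and 18.4 FPKM in recovery. On deposited FPKM these later groups of *nf-ya1* lay below every library of W22. After median-ratio scaling this held for *nf-ya1* at R2h only. The *nf-ya1* libraries at 1 h then lay above those of W22 at 0 h and R2h.

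The largest pooled SDs were those of Zm00001eb407210 (0.314) and Zm00001eb397510 (0.311). Zm00001eb407210 had 26.9, 32.7 and 15.7 FPKM in W22 at 0 h, 23.7, 23.8 and 18.7 in the heat and 32.5, 23.0 and 25.3 in recovery. In *nf-ya1* it had 23.6, 25.5 and 31.7 FPKM at 0 h, 24.8, 17.5 and 15.8 in the heat and 25.9, 19.97 and 18.03 in recovery. No pair of groups was free of overlap in it, and its values within W22 at 0 h held both the lowest and the highest of the gene. Over all stable genes, 7 of 1170 single values lay more than 0.5 from their group mean on the log2 scale, in 6 genes. In 15 genes the library farthest from its group mean was *nf-ya1* at 0 h, replicate 3, and in 10 it was *nf-ya1* at 1 h, replicate 1, more than for any other library. Without the former library the rule chose 68 genes, 63 of them among the 65, and without the latter 65 genes, 59 of them among the 65.

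**Figure D3:**
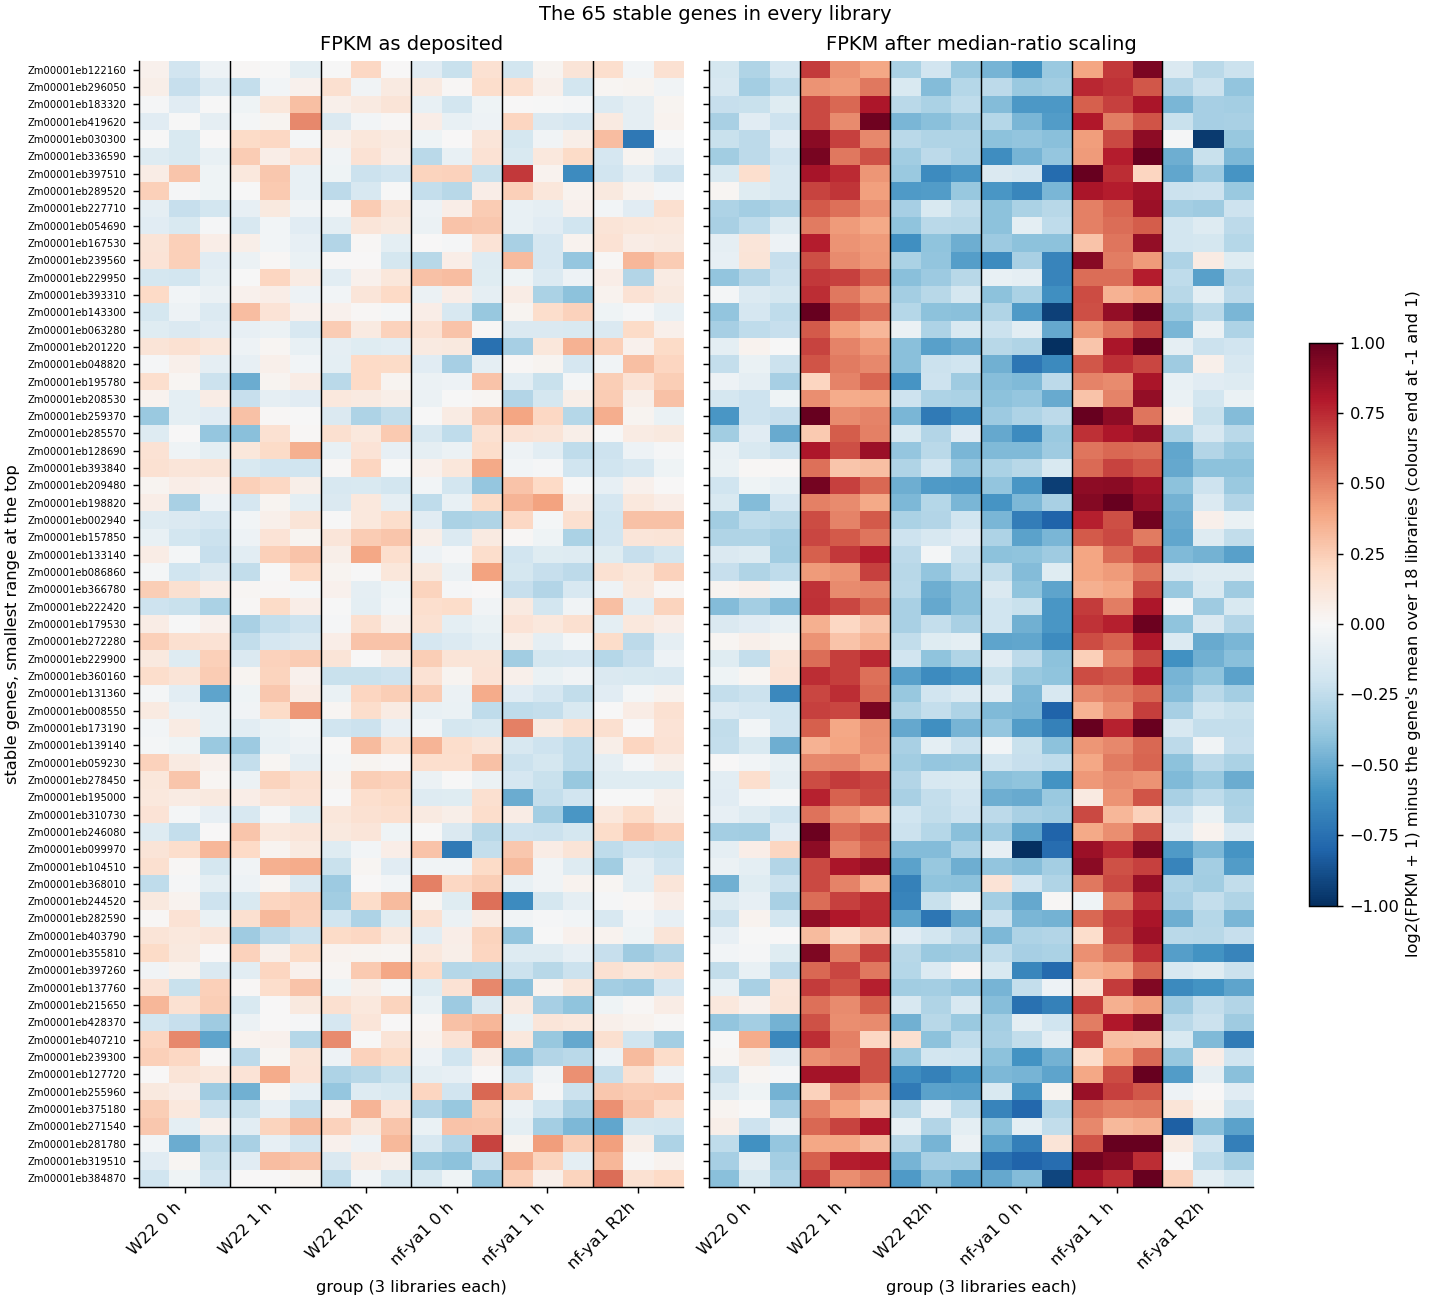
Each row is 1 of the 65 stable genes, ordered by range, and each column 1 of the 18 libraries, with colour for log2(FPKM + 1) minus the mean of the gene over all libraries, as deposited (left) and after median-ratio scaling (right). The deposited values lie between -0.75 and 0.71 with scattered strong cells, while after scaling the 1 h group means are above those of 0 h in all 65 genes of both genotypes.

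Within the limit of 0.5, the stable genes did not all lean the same way. The group with the highest mean was *nf-ya1* at 0 h in 14 genes, W22 at R2h and *nf-ya1* at R2h in 13 each, W22 at 1 h in 12, W22 at 0 h in 7 and *nf-ya1* at 1 h in 6. The group with the lowest mean was *nf-ya1* at 1 h in 22 genes (33.8%), W22 at 0 h in 13, *nf-ya1* at 0 h in 10, each R2h group in 7 and W22 at 1 h in 6 (9.23%). Among the other well-expressed genes, the lowest group was *nf-ya1* at 1 h in 44.6% and W22 at 1 h in 28.2%. From 0 h to 1 h, 13 stable genes were higher in both genotypes, 19 were lower in both, 25 were higher in W22 and lower in *nf-ya1*, and 8 were the reverse. From 0 h to R2h these counts were 22, 13, 18 and 12. All of them hold for FPKM as deposited: in W22, 40 genes were higher and 25 lower at R2h than at 0 h, but 11 higher and 54 lower after median-ratio scaling, and 24 higher and 41 lower after quantile normalization.

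In W22 the median stable gene differed by 0.04 between 1 h and 0 h (-0.40 to 0.34), with 38 genes higher and 27 lower. Over the same step the other well-expressed genes had a median difference of -0.53. In *nf-ya1* the median was -0.12 for the stable genes (-0.47 to 0.50), with 21 higher and 44 lower, and -0.69 for the other well-expressed genes. The step from 0 h to R2h gave medians of 0.06 in W22 and 0.01 in *nf-ya1* for the stable genes, beside 0.06 and 0.07 for the others. Leaving out each library in turn moved the stable-gene median from 0 h to 1 h in W22 between 0.01 (without W22 1 h replicate 2) and 0.10 (without W22 0 h replicate 1). The same step in *nf-ya1* gave medians of -0.14 to -0.08, nearest to 0 without *nf-ya1* 0 h replicate 3. For R2h it lay between 0.03 (without W22 0 h replicate 3) and 0.11 (without W22 R2h replicate 1) in W22. In *nf-ya1* it lay between -0.02 (without *nf-ya1* 0 h replicate 2) and 0.06 (without *nf-ya1* 0 h replicate 3), and median-ratio scaling gave 0.13. The medians of stable and other genes were farthest apart from 0 h to 1 h, where most well-expressed genes had a lower FPKM.

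Between the genotypes, the stable genes had a median difference (*nf-ya1* minus W22) of 0.03 at 0 h, -0.11 at 1 h and -0.02 at R2h. The other well-expressed genes had medians of -0.06, -0.19 and -0.05. At 1 h, 43 of the 65 stable genes were lower in *nf-ya1* and 22 higher, while at 0 h 30 were lower and 35 higher. After median-ratio scaling both splits turned, with 26 lower and 39 higher at 1 h and 57 lower and 8 higher at 0 h. With each library left out in turn the deposited median was -0.03 to 0.05 at 0 h and -0.14 to -0.05 at 1 h. At 0 h it was below 0 without *nf-ya1* 0 h replicate 3, W22 0 h replicate 2 or W22 0 h replicate 3. At 1 h it was nearest to 0 without W22 1 h replicate 2. Since the rule capped each of these differences at 0.5, the medians describe the list and were not tested.

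Even small differences could separate the libraries of a group pair. In W22, 22 stable genes (33.8%) had no overlap between the 3 libraries at 0 h and the 3 at 1 h, against 72.4% of all genes tested. From 0 h to R2h in W22, 24 stable genes did not overlap (background 50.7%). In *nf-ya1* the counts were 23 genes from 0 h to 1 h (background 72.9%) and 19 genes from 0 h to R2h (background 49.6%). Between the genotypes, 12 stable genes did not overlap at 0 h (background 55.6%), 20 at 1 h (background 55.5%) and 21 at R2h (background 51.7%). Over the 15 pairs of groups, a stable gene had a median of 5 pairs without overlap (0 to 11) and the other well-expressed genes a median of 11. In 5 stable genes no pair was free of overlap. A limma F-test for any difference among the 6 groups called 20371 of 22572 genes (90.2%) at an adjusted p of at most 0.01, and 9 of the 65 stable genes were among them. After median-ratio scaling all 65 were called, beside 18196 of the 22572 genes tested (80.6%) and 85.0% of the well-expressed genes. The rule was set on the same group means, so nothing is read from these counts beyond a description of the list.

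The same rule was also read in libraries that had no part in the choice. When genes were chosen from 2 replicate numbers of each group and their range was taken in the third number, the rule chose 63, 70 and 88 genes with replicates 1, 2 and 3 set aside. In the libraries set aside, 27 of 63 (42.9%, 95% Wilson interval 31.4% to 55.1%), 31 of 70 (44.3%, 33.2% to 55.9%) and 22 of 88 (25%, 17.1% to 35.0%) were again within 0.5. The remaining genes at or above the FPKM minimum were within 0.5 in 1.27%, 0.593% and 0.476%. Those genes had not met the rule in the other replicates of the same groups, so they are no neutral background. The gap shows only that ranges repeated in part between replicates of the same groups. It is no test of the stable genes, since each list differs from theirs. The Wilson intervals here treat genes as independent, which genes of the same libraries are not.

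A single library per group gives a noisier range than a mean of 3, so a wider limit was read as well. Within a range of 1 in the libraries set aside lay 93.7%, 95.7% and 88.6% of the chosen genes and 15.9%, 16.6% and 12.7% of the rest. The median range there was 0.54, 0.52 and 0.66 for chosen genes and 1.59, 1.52 and 1.62 for the rest. The lists overlapped with the 65 genes in 45, 54 and 52 genes.

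The choice was read across genotypes too. The 3 groups of W22 alone chose 1008 of 5190 genes, and 169 of them (16.8%, 95% Wilson interval 14.6% to 19.2%) were within 0.5 over the 3 groups of *nf-ya1*, beside 5.595% of the genes not chosen. Their median range in *nf-ya1* was 0.87, and that of the rest 1.33. In the other direction, *nf-ya1* alone chose 409 of 4292 genes, of which 161 (39.4%, 34.7% to 44.2%) were within 0.5 in W22, beside 15.0% of the rest, with median ranges of 0.57 and 1.03. Chosen genes were thus within 0.5 in the other genotype at higher shares than the rest, but on deposited FPKM most of them were past 0.5 there. After median-ratio scaling the shares were 41.1% (rest 18.8%) in *nf-ya1* and 52.9% (rest 27.2%) in W22. The Wilson intervals treat genes as independent, which genes read in the same libraries are not. They give no measure of the spread between plants. All 65 stable genes are on both lists by construction.

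**Figure D4:**
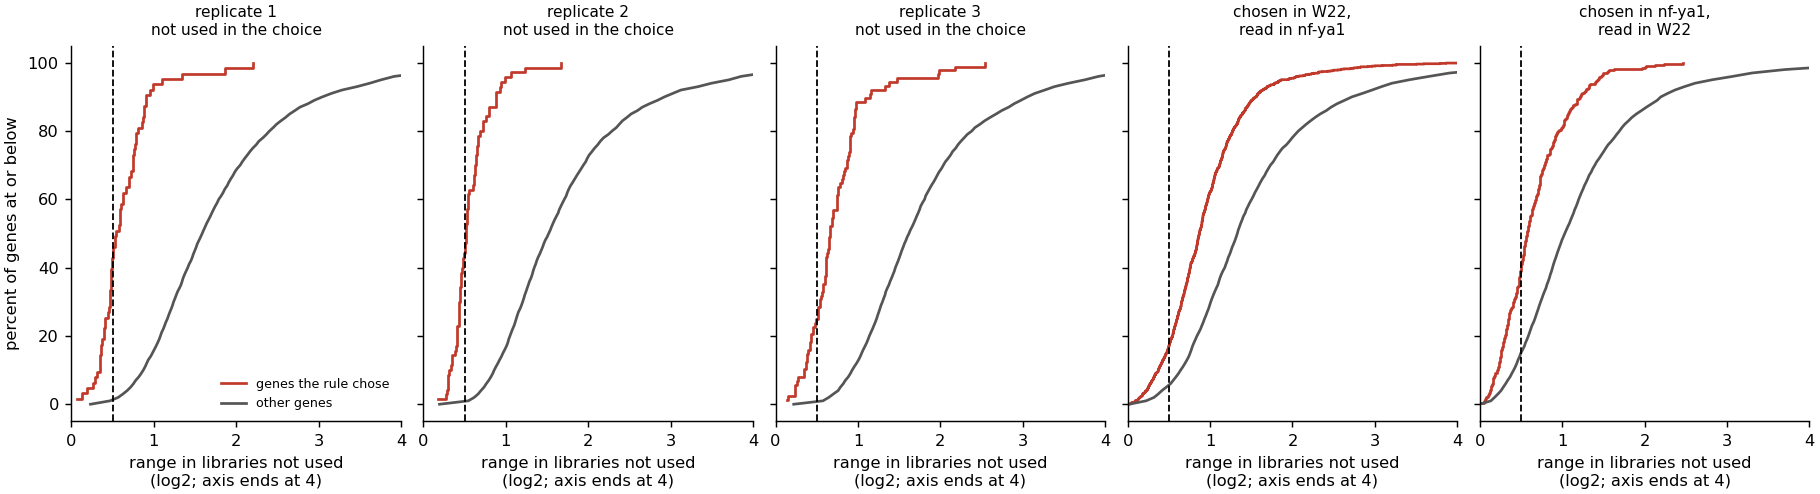
Percent of genes (y axis) at or below a given range (x axis, log2) in libraries that were not used to choose them, for genes the rule chose (red) and the other genes at or above the FPKM minimum (grey). The first 3 panels set aside replicate 1, 2 or 3 and the last 2 panels read the choice of 1 genotype in the other; at the dashed line (0.5) the red curves reach 42.9%, 44.3%, 25%, 16.8% and 39.4%.

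What counted as stable rested on the scale. Median-ratio scaling sets the libraries to the same middle by a size factor, which was 0.607 to 0.720 in W22 at 1 h, 0.557 to 0.657 in *nf-ya1* at 1 h and 1.09 to 1.48 in the other libraries. On that scale all 65 stable genes were higher at 1 h than at 0 h in both genotypes, by a median of 0.75 in W22 (0.28 to 1.06) and of 1.02 in *nf-ya1* (0.64 to 1.64). The other well-expressed genes had medians of 0.18 and 0.45, and the median of all genes tested moved from -0.51 to -0.03 in W22 and in *nf-ya1* from -0.92 to -0.06. Quantile normalization gave medians of 0.41 in W22, with 62 of 65 genes higher, and of 0.52 in *nf-ya1*, with 64 of 65 higher. The direction of the stable genes at 1 h therefore turned with the scale in *nf-ya1*, from a median of -0.12 on deposited FPKM.

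The rule applied after median-ratio scaling chose 350 of 4511 genes, and none of the 65 was among them, since their ranges on that scale were 0.76 to 1.64. On deposited FPKM, all 350 of those genes were lower at 1 h in both genotypes, with medians of -0.73 in W22 and -1.07 in *nf-ya1*. After quantile normalization the rule chose 310 of 4594 genes, 13 of them among the 65. Scaling each library to the same sum kept 51 of the 65 in a list of 68, and scaling without the 20 highest genes of each library kept 49 in a list of 82. Over the libraries, the summed FPKM of the 65 genes was 2592 to 2948, or 0.296% to 0.342% of a library. Their median FPKM was 23.1 to 27.4, and that of all well-expressed genes was 32.7 to 55.8. The rule limited how far the group means of the 65 genes could move on deposited FPKM. Their steady share therefore follows from the choice and is given as a description. A steady amount of these transcripts per cell and a steady share of a changing total cannot be told apart from FPKM.

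**Figure D5:**
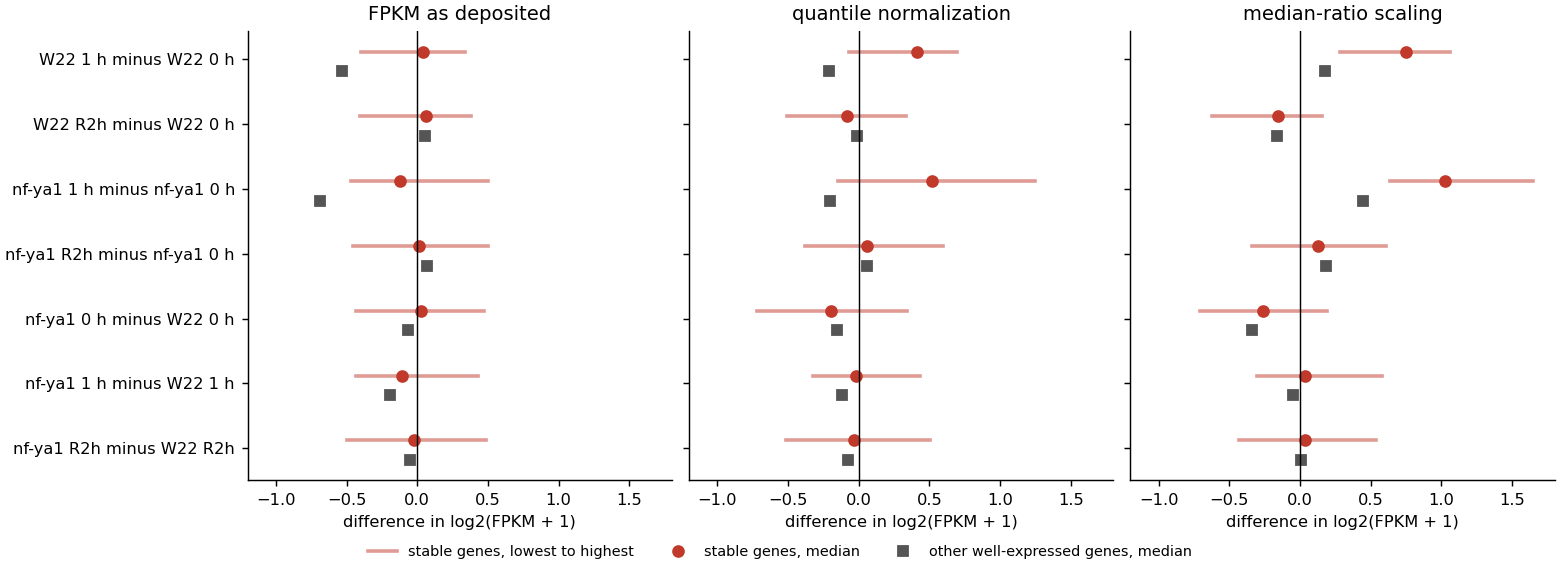
Difference in log2(FPKM + 1) between groups (x axis) for 7 comparisons (y axis) on FPKM as deposited, after quantile normalization and after median-ratio scaling, with the median (red point) and the lowest to highest value (red line) of the 65 stable genes and the median of the other well-expressed genes (grey square). At 1 h the stable genes have medians of 0.04 in W22 and -0.12 in *nf-ya1* as deposited, and of 0.75 and 1.02 after median-ratio scaling.

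Annotation text was at hand for 4 of the 65 genes, from a gene table of the study that covers 1996 genes, 326 of them well-expressed. These 4 were chosen for naming after their values were seen, and the other 61 are given by ID. Zm00001eb133140 is annotated as ABC transporter-like, a family that moves substrates across membranes with energy from ATP. It had 26.7, 24.9 and 21.4 FPKM in W22 at 0 h, 23.4, 29.98 and 31.0 in the heat and 26.3, 33.4 and 28.4 in recovery. In *nf-ya1* it had 24.4, 25 and 28.7 FPKM at 0 h, 22.0, 23.2 and 23.0 in the heat and 23.1, 21.4 and 22.2 in recovery. On deposited FPKM both later groups of *nf-ya1* lay below those of W22 without overlap, and the range of the gene was 0.38. The 4 annotated ABC transporter-like genes that were well-expressed had ranges of up to 2.17. It was the only stable gene among them, so its range had to be the smallest.

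Zm00001eb272280 carries a basic-leucine zipper domain, the DNA-binding domain of the bZIP transcription factors, several of which are known for roles in stress and abscisic acid responses of plants. It had 27.7, 26.1 and 25.9 FPKM in W22 at 0 h, 19.5, 20.6 and 21.0 in the heat and 24.4, 28.5 and 28.6 in recovery. In *nf-ya1* it had 20.6, 21.1 and 21.6 FPKM at 0 h, 24.3, 21.8 and 23.0 in the heat and 26.6, 19.2 and 21.8 in recovery. On deposited FPKM, W22 was lower at 1 h and *nf-ya1* higher at 1 h, both without overlap with 0 h, although the range was 0.40. After median-ratio scaling the gene was higher at 1 h than at 0 h in both genotypes, as all 65 stable genes were. The 12 annotated bZIP genes among the well-expressed genes had ranges of 0.40 to 4.98 with a median of 1.93. It was the only stable gene among them, so the rule fixed that its range was the smallest.

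Zm00001eb179530 carries an Agenet-like domain, a fold found in plant proteins that bind chromatin or RNA. Its FPKM was 17.3, 16.4 and 16.9 in W22 at 0 h, 12.9, 13.7 and 14.1 in the heat and 16.3, 18.4 and 17.0 in recovery. The *nf-ya1* libraries had 18.4, 15.2 and 15.6 FPKM at 0 h, 18.2, 17.7 and 18.5 in the heat and 15.3, 17.7 and 17.3 in recovery. On deposited FPKM the 3 libraries of W22 at 1 h were lower than all others, and the range of the gene was 0.39. After median-ratio scaling they were higher than those of W22 at 0 h. Zm00001eb397260 is annotated as a CDP-alcohol phosphatidyltransferase, a family that joins head groups to lipids in phospholipid synthesis. It had 12.9, 13.6 and 11.9 FPKM in W22 at 0 h, 12.3, 15.5 and 13.7 in the heat and 13.4, 16.1 and 17.6 in recovery. In *nf-ya1* it had 15.3, 10.7 and 10.7 FPKM at 0 h, 11.3, 10.8 and 11.3 in the heat and 14.8, 14.5 and 14.7 in recovery, with a range of 0.45.

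Other annotated families of the same table, which holds genes that the study had selected in these libraries, give values to set beside these ranges. None of the well-expressed genes of the families that follow was a stable gene, and with few genes in each and 1.68% stable among all well-expressed genes nothing is read from that. The 12 genes with an alpha crystallin/Hsp20 domain, the small heat shock proteins that hold unfolding proteins, had ranges of 1.01 to 9.23 with a median of 6.36. The 6 chaperonins of the Cpn60/TCP-1 family, which fold proteins inside a closed cavity, had ranges of 1.43 to 4.41. Of 4 genes with a DnaJ C-terminal domain, co-chaperones of Hsp70, the steadiest was Zm00001eb282660 at 0.53, just past the limit, and the most variable reached 6.03. The 16 chlorophyll A-B binding genes had ranges of 1.19 to 5.53 with a median of 2.28. The 1 well-expressed gene annotated to the actin family, Zm00001eb366720, had a range of 1.78, with 97.1, 160 and 192 FPKM in *nf-ya1* at 1 h and 39.2, 44.3 and 40.8 at R2h. Actin genes are often taken as reference genes in qRT-PCR.

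Neither *ZmNF-YA1* nor any of the 6 genes of the promoter assay was a stable gene. *ZmNF-YA1* had a range of 1.99 and did not reach an FPKM of 10 in all libraries. Of the 6 genes whose promoters were used in the reporter assay, 2 were well-expressed, with ranges of 7.53 for Zm00001eb406490 (*HUP26*) and 1.83 for Zm00001eb080570 (*GRF1*). The remaining 4 fell below the minimum in at least 1 library and had ranges of 8.53 for Zm00001eb013430 (*ASN3*), 5.56 for Zm00001eb372380 (*NIP2c*), 2.25 for Zm00001eb373300 (*bZIP100*) and 1.84 for Zm00001eb211100 (*JIH5*). The bZIP gene of the assay had FPKM of 33.8 ± 1.55 in W22 at 1 h and of 6.51 ± 2.13 in *nf-ya1* at 0 h (SD, n = 3 each). In the same groups the stable bZIP gene Zm00001eb272280 had 20.3 ± 0.775 and 21.1 ± 0.535 FPKM (SD, n = 3 each).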

How the data were processed

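RNA-seq libraries from W22 and *nf-ya1* leaves (6 groups of 3) were sequenced by BGI on the BGISEQ-500 platform. The authors filtered the reads, aligned them to B73 V5 and deposited 1 table of FPKM values with 2 decimals for all 18 libraries; the aligner and the counting tool are not given in the sources used here. Of 332 ratios between the low values of a gene in 2 libraries, 41.3% were whole within 0.05. Such ratios also depend on the depth of both libraries, so they cannot give reads, and depth per gene is not known.

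Groups followed the sample titles. All values were put on the log2(FPKM + 1) scale, on which changes of low genes look smaller. A gene was tested if 3 or more libraries reached an FPKM of 1. limma 3.58.1 in R 4.3.3 fitted 1 mean per group with an intensity trend, and the F-test was adjusted by Benjamini and Hochberg over all genes tested. Ranges, spreads and lists read in libraries set aside were computed in Python 3.11.15. No library was a copy of another: within a group, 1.29% to 3.34% of the genes above 0 had the same FPKM to 2 decimals in a pair of libraries.

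The members, lists and tests were chosen with earlier results of these data known. The genes named are the 10 of smallest range, 3 on each side of the limit, the 3 of highest mean FPKM, the 2 of smallest and the 2 of largest pooled SD, *ZmNF-YA1* and the 6 genes of the promoter assay. The 4 annotated members, the steadiest DnaJ gene, the actin gene and Zm00001eb278450 fall outside this rule and were named after their values were seen. Annotation text came from a supplementary table of genes that the study had selected in these libraries, whose fold changes and p-values were not used. The reference gene table named 0 of the gene IDs, so gene lists by product name, promoter motifs and sequences are not used here. Alternatives are scales, pseudocounts, minimums, limits and libraries left out. 2 of them, scaling to the same sum and scaling without the 20 highest genes, were chosen after seeing the data.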

Additional observations from a re-analysis of the deposited data

How the results depend on the processing

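The number of stable genes (65) was 60 to 74 when each library was left out in turn, lowest without *nf-ya1* 0 h replicate 1 and highest without *nf-ya1* 1 h replicate 3. It was 101 with an FPKM of at least 5, 29 with at least 20, 4 with a range of at most 0.25, 744 with at most 1 after the 100 highest genes were left out, 350 after median-ratio scaling and 310 after quantile normalization. The other 7 settings gave counts within 1.5 times the main count. Median-ratio scaling and quantile normalization moved the median 1 h minus 0 h to 0.75 and 0.41 in W22 and to 1.02 and 0.52 in *nf-ya1*, and the median R2h minus 0 h in W22 to -0.156 and -0.0834. They moved *nf-ya1* minus W22 at 0 h to -0.26 and -0.20, and median-ratio scaling moved it at 1 h to 0.0377. Genes chosen in W22 were within 0.5 in *nf-ya1* in 41.1% after median-ratio scaling and 41.0% after quantile normalization, and the reverse reading gave 52.9% and 58.2%. Under the 4 alternatives, the share read in replicate 1 set aside was 33.1% to 41.4%, against 42.9%. It was 38.7% to 53.5% for replicate 2, against 44.3%, and 25% to 34.8% for replicate 3, against 25%. The median SD was 0.130 to 0.140 with each library left out.

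No pairing of libraries by replicate number was seen. Deviations from group means correlated by -0.168 to 0.204 for the same number (45 pairs) and by -0.181 to 0.197 for different numbers (90 pairs). The deviations within a group are tied to each other, so this check is weak and cannot show that the libraries were unpaired. With the replicate number as a block, the F-test called 20149 genes, against 20371 without the block and 19714 to 20449 with 1 library left out. Of the 65 stable genes, 9 were among the main calls (90.2% of all genes tested were called). The count was 6 with the block (all genes 89.3%), 5 with no intensity trend (90.3%) and 17 with no filter (61.4%). It was 32 at an adjusted p of 0.05 (95.2%), 65 after median-ratio scaling (80.6%) and 51 after quantile normalization (81.8%). With 1 library left out it was 4 to 16 (87.3% to 90.6%). The rule used the same group means, so these counts only describe the list. The promoter alternatives were not run, since promoter sequences are not used here. Reads per gene are not known, so the counting error of single values cannot be given.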
